A study of Mus musculus with 2 samples.

Results

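Mir126a, Mir126b, Mir143 and Mir145a are microRNA genes known from blood vessels, and they were followed here through small RNA libraries of the newborn mouse cortex. They were picked out by symbol in GENCODE annotation M21, and are 4 of the 2202 microRNA genes that the deposited tables list. Earlier results of these data were known when they were chosen. The animals were female mice of the F1 hybrid strain B6CASTF1/J, aged 4 days, and the tissue was left cerebral cortex. The design has 1 group of 2 biological replicates, each with 1 library of RNAs below 30 bases from its own numbered animal. The labels give both animals the same donor record, and no other genotype, age, sex or treatment was analysed here. With a single group, there is no comparison of conditions, and the values below describe levels in each animal and the distance between the animals.

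A microRNA gene is transcribed as part of a longer RNA that folds into a hairpin, from which a short mature strand is cut and loaded into an Argonaute protein, where its seed (bases 2 to 8) recognises target messages. The Mir126 locus lies inside Egfl7, a gene for a secreted protein of endothelial cells, and its microRNA is known to be enriched in endothelium and to sustain vascular growth factor signalling by lowering inhibitors such as Spred1. Mir143 and Mir145a are made from a joint precursor in smooth muscle cells and pericytes, the mural cells that wrap vessels, and are known for promoting the contractile state of vascular smooth muscle. In cortex, vessels of both cell types run between neurons and glia, so all of these RNAs were measured in bulk tissue.

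The Mir126 locus carries a hairpin on each strand, and its sequences are shown because the strand decides which gene a read is assigned to. RefSeq (GRCm38.p6) gave 5 sequences for Mir126a and Mir126b. The Mir126a hairpin lies at chr2:26591357-26591429 on the plus strand and the Mir126b hairpin at chr2:26591363-26591420 on the minus strand. Capitals mark the listed mature strands in the hairpins and the seed in the mature strands.
Mir126a hairpin: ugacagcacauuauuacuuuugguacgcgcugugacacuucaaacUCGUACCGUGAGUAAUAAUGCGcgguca
Mir126b hairpin: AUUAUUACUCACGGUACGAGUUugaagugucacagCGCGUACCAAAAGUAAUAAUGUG
miR-126a-3p: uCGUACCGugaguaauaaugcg
miR-126b-5p: aUUAUUACucacgguacgaguu
miR-126b-3p: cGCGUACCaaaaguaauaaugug

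All 58 bases of the Mir126b hairpin were the reverse complement of the Mir126a hairpin, which is 73 bases long. Over 19 bases, miR-126a-3p and miR-126b-5p lie opposite each other on the strands of the DNA, whereas miR-126b-3p lies opposite the other arm of the Mir126a hairpin. The 3p strands of both genes resembled each other. They matched at 17 of 22 positions when shifted by 1 base, and their seeds shared the 6-base run CGUACC. No other mature microRNA among the 1679 in the table had the seed of miR-126a-3p, miR-126b-5p or miR-126b-3p. The seed of miR-126a-3p holds the dinucleotide CG 2 times, as did 19 (1.13%) of those 1679 seeds, while 219 (13.0%) held it at least once. Folding with ViennaRNA gave a minimum free energy of -31.20 kcal/mol with 27 base pairs for the Mir126a hairpin and -19.30 kcal/mol with 21 base pairs for that of Mir126b.

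At this locus all counted reads came from the Mir126a strand. Mir126a had 45660 reads on its annotated strand in replicate 1 and 54454 in replicate 2, and 0 on the opposite strand in both. Mir126b had 0 reads on its own strand in both libraries, while 45656 and 54454 reads lay opposite to it, the reads of Mir126a. The 4 reads by which these numbers differ in replicate 1 are also the number that Mir126a kept when strand was disregarded, and in replicate 2 it kept 0. A count of 0 allows up to 3 reads per library, so that Mir126a was at least 15220-fold above Mir126b in replicate 1 and at least 18151-fold in replicate 2. As a share of the locus, Mir126b could have held up to 0.00657% in replicate 1 and 0.00551% in replicate 2. The gene table adds both arms of a hairpin together, so the division of these reads between miR-126a-3p and the 5p strand cannot be given.

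**Figure D1:**
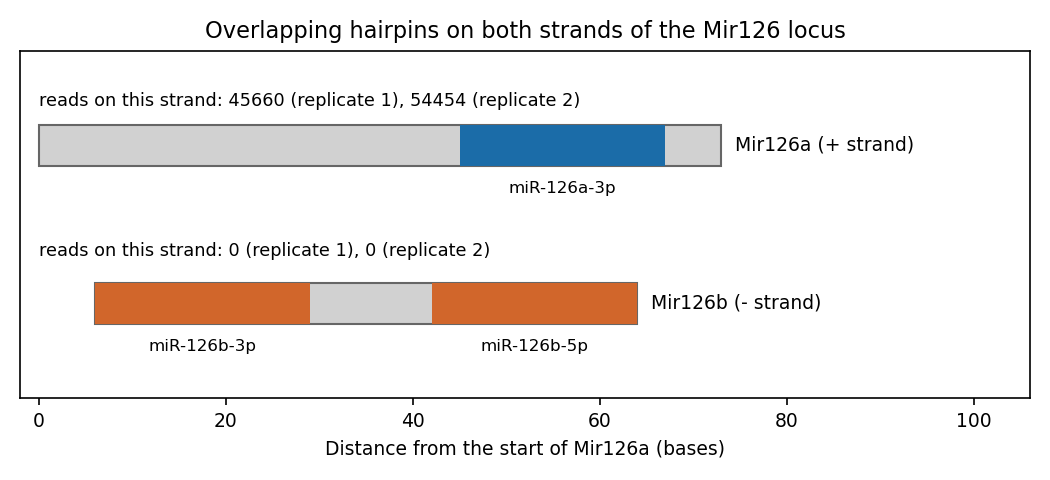
The Mir126a and Mir126b hairpins (grey bars) with their listed mature strands (coloured), against distance in bases from the start of Mir126a, with the reads counted on each strand in each library. The plus strand held 45660 and 54454 reads and the minus strand 0 in both.

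One-sided read-out was common where microRNA hairpins overlap on opposite strands. Such pairs numbered 32, of which 26 had at least 100 reads, summed over both libraries, on the stronger gene. In 20 of these 26 pairs, among them Mir126a and Mir126b, the weaker gene had no read in either library. The weaker gene reached 1% of the pair's reads, summed over both libraries, in 3 pairs. In the least one-sided of them the order differed between the animals: Mir24-1 had 116 and 39 reads and Mir3074-1 28 and 86, so that Mir3074-1 held 19.4% of the pair in replicate 1 and 68.8% in replicate 2. Mir3107, beside Mir486, held 4.38% and 10.6%. Mir24-1 shares bases with a hairpin elsewhere, and a read matching both places was not counted. The shares of Mir24-1 and Mir3074-1 therefore rest on uniquely placed reads and may not be those of the whole locus. Whether Mir486 and Mir3107 lose reads in this way was not tested. Among the 26 pairs the stronger count of Mir126a ranked 2.

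Mir126a had the most reads of these vessel genes. Its level was 12842 CPM (counts scaled to a fixed total over microRNA genes) in replicate 1 and 19723 CPM in replicate 2, or 16282 ± 4865 CPM (SD, n = 2). It made up 1.28% of microRNA counts in replicate 1 (Wilson interval 1.27 to 1.30) and 1.97% in replicate 2 (1.96 to 1.99), and held rank 18 and rank 11 among the 2202 genes. In annotation M21, Mir126a (ENSMUSG00000065540.1) lies within 9 transcripts of Egfl7 on mm10, in an exon of 1 of them, which is a retained intron, and in introns of the other 8. An intron of Gm20532 also spans it. Mir126b (ENSMUSG00000105799.1) occupies the same places on the other strand and was at 0 in both libraries, where the limit of 3 counts is 0.844 CPM for replicate 1 and 1.09 CPM for replicate 2. In bulk tissue, fewer cells of a type and less of an RNA per cell cannot be told apart.

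The mural microRNAs had lower and very unequal counts. Mir143 had 11865 reads in replicate 1 and 11028 in replicate 2, which is 3337 and 3994 CPM (3666 ± 465, SD, n = 2). It held 0.334% of counts in replicate 1 (0.328 to 0.340) and 0.399% in replicate 2 (0.392 to 0.407), at ranks 56 and 50. Its cluster partner Mir145a had 497 and 270 reads, which is 140 and 97.8 CPM (119 ± 29.7), at ranks 205 and 217. The reads of both libraries thus put the genes in the order Mir126a, Mir143, Mir145a, Mir126b, and the levels of neighbours in that order did not overlap between libraries. Scaled by hairpin length, as levels per base rescaled to the same total as CPM, the means were 18194 for Mir126a, 4745 for Mir143 and 138 for Mir145a, in the same order.

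**Figure D2:**
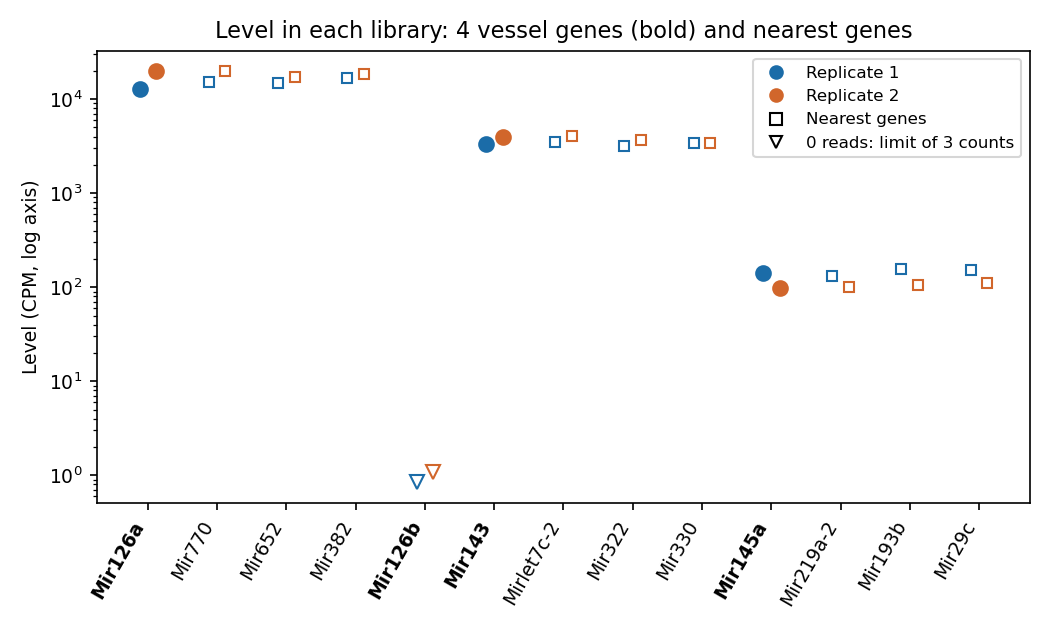
Level in CPM (log axis) of the vessel microRNA genes (filled circles, bold names) and of the genes nearest to each in level (open squares), in replicate 1 (blue) and replicate 2 (orange). Open triangles stand for 0 reads and are drawn at 3 counts, 0.844 and 1.09 CPM. Mir126a was higher in replicate 2, at 19723 against 12842 CPM, and Mir145a lower, at 97.8 against 140 CPM.

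Mir143 (ENSMUSG00000065445.3) is a minus-strand gene of chromosome 18, between bases 61649196 and 61649258, and Mir145a (ENSMUSG00000065592.2) on the same strand between 61647825 and 61647894, with 1301 bases between them. In annotation M21 no other gene overlaps either hairpin. The noncoding gene Carmn, known as a host transcript of this cluster in smooth muscle, ends 366 bases upstream of Mir143 in that annotation. Neither gene shared 22 bases with any other annotated hairpin. Shorter shared runs were not examined, so a loss of their reads to the class mapped to several places was only checked at that length. Mir126a shared 22 bases only with Mir126b, the other strand of its own place. Both mural genes had 0 reads on the opposite strand, and their counts were the same with or without strand.

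Of the 3 genes with reads, Mir126a and Mir143 were higher in replicate 2 and Mir145a was higher in replicate 1. Ratios are of counts after scaling by trimmed means of M-values (TMM), replicate 2 over replicate 1, with exact 95% intervals that cover counting error only. Mir126a, at 12842 and 19723 CPM, had a log2 ratio of 0.60 (0.58 to 0.62), or 1.52-fold. Mir143, at 3337 and 3994 CPM, had a log2 ratio of 0.24 (0.20 to 0.28), or 1.18-fold. Mir145a, at 140 and 97.8 CPM, had a log2 ratio of -0.53 (-0.75 to -0.32), or 1.45-fold higher in replicate 1.

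The intervals lay wholly on 1 side of 0 for all 3 genes, but distances of this size were frequent between the animals. Of 308 genes whose counts summed to 100 or more, 38 (12.3%) passed 1.5-fold towards replicate 2 and 60 (19.5%) towards replicate 1. Of the 3 vessel genes, 1 (Mir126a) was past that fold in replicate 2 and 0 in replicate 1. The lower end of the Mir126a interval, 0.58, lay at the edge of that fold. A larger distance than that of Mir126a was seen for 87 of the 308 genes (28.2%), than that of Mir145a for 103 (33.4%) and than that of Mir143 for 192 (62.3%). The median size of the log2 ratio over these genes was 0.33. Among 26 other genes within 2-fold of its mean level, 4 were further apart than Mir126a, against 30 of 51 for Mir143 and 27 of 74 for Mir145a. With 1 library for each animal these distances have no test, and dissection, animal and library preparation cannot be told apart.

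Within a library, ratios between the vessel genes need no scaling between libraries. They are ratios of reads, and how evenly different microRNAs are turned into reads was not tested. There were 3.69 reads of Mir126a per read of Mir143 and Mir145a together in replicate 1 (exact interval 3.62 to 3.77) and 4.82 in replicate 2 (4.72 to 4.92), or 4.26 ± 0.796 (SD, n = 2). That ratio was 1.30-fold larger in replicate 2. Mir126a made up 78.7% of the reads of the vessel genes in replicate 1 and 82.8% in replicate 2, Mir143 20.4% and 16.8%, and Mir145a 0.857% and 0.411%. Together they held 58022 and 65752 reads.

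Mir143 and Mir145a come from 1 cluster, yet 23.9 reads of Mir143 were counted per read of Mir145a in replicate 1 (21.8 to 26.2) and 40.8 in replicate 2 (36.2 to 46.3), or 32.4 ± 12.0 (SD, n = 2). The intervals did not overlap, and the ratio was 1.71-fold larger in replicate 2 (0.77 on the log2 scale). Counted per base of hairpin, the mean ratio was 36.0. Unequal neighbours were the rule among microRNA genes. The 99 pairs compared lay on 1 strand, at most 10 kb apart, and were adjacent among genes with 100 reads or more. Genes with fewer reads were skipped, so they may lie between, and pairs with such a gene are not included. The median inequality of the 99 pairs was 5.34-fold. That of Mir143 and Mir145a, 31.2-fold as the geometric mean of both libraries, was reached or passed by 17 pairs (17.2%), itself included. Their shift of 0.77 between libraries compared with a median of 0.44 and was reached by 29 pairs (29.3%). In the 74 pairs in which neither gene shared 22 bases with a hairpin elsewhere, the corresponding numbers were 11 (14.9%) and 20 (27.0%). These pairs share 2 libraries and overlap in genes, and their counts are a description.

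**Figure D3:**
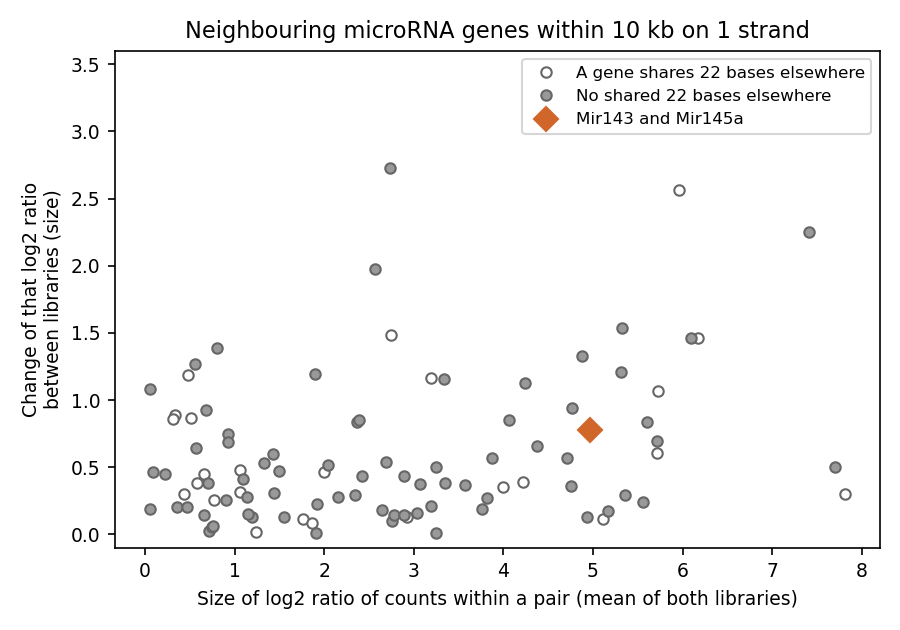
MicroRNA genes on 1 strand within 10 kb, adjacent among genes with 100 reads or more: size of the log2 ratio of their counts (horizontal, mean of both libraries) against the size of its change between the libraries (vertical). Filled circles are pairs of genes that share no 22 bases elsewhere, open circles the others, and the diamond is Mir143 with Mir145a, whose shift was 0.77 beside a median of 0.44.

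By level over both libraries, on log2(CPM + 1), the genes nearest to Mir126a were Mir770 (distance 0.26), Mir652 (0.28) and Mir382 (0.41). Mir770 and Mir382 belong to the imprinted Dlk1-Dio3 region. Nearest to Mir143 were Mirlet7c-2 (0.07), Mir322 (0.14) and Mir330 (0.24), and nearest to Mir145a were Mir219a-2 (0.10), Mir193b (0.20) and Mir29c (0.22). Likeness over 2 libraries is mostly likeness in level. In the ratio between animals, Mir770 (0.34), Mir652 (0.21) and Mir382 (0.12) were all below the 0.60 of Mir126a. Mir219a-2 (-0.40), Mir193b (-0.59) and Mir29c (-0.48) were on the same side of 0 as Mir145a. Nearness in the same 2 libraries limits how far these ratios can differ, so the side shared with Mir145a follows from the choice of genes.

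Other microRNAs known from endothelium did not share a direction. All 15 genes of that list reached 2 CPM in each library, called detected here, although many of them are also made by other cells of the brain. The list summed to 32662 CPM for replicate 1 and 39604 CPM for replicate 2. Of the 14 with 100 reads or more, 2 (14.3%) passed 1.5-fold towards replicate 2 and 3 (21.4%) towards replicate 1, near the 12.3% and 19.5% of all 308 genes. The median log2 ratio was 0.07, beside -0.09 over all 308. Mir130a, known from human endothelial cells as a promoter of angiogenesis, was the most abundant at 9427 and 10736 CPM. Mir296, at 6347 and 9971 CPM, and Mir23a, at 2594 and 4009 CPM, had log2 ratios of 0.63 and 0.61, close to that of Mir126a. Mir23b stood at 7393 and 7771 CPM with a log2 ratio of 0.05. Mir322 stood at 3150 and 3708 CPM with a log2 ratio of 0.22. In the other direction Mir27b stood at 1092 and 515 CPM with a log2 ratio of -1.10. Mir24-1, at 32.6 and 14.1 CPM, and Mir27a, at 98.7 and 65.9 CPM, had log2 ratios of -1.21 and -0.60. Mir24-1 shares bases with a hairpin elsewhere, so its ratio rests on uniquely placed reads, 116 and 39.

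Of the mural and mesenchymal microRNAs beyond Mir143 and Mir145a, Mir21a and Mir195a were past 1.5-fold towards replicate 1. Of 8 names listed, 7 matched a gene and 4 were detected, all with 100 reads or more, so these were 2 of 4, beside 19.5% of all 308 genes, and 0 of 4 passed that fold towards replicate 2. The list had a sum of 5573 CPM in replicate 1 and 2764 CPM in replicate 2. Mir21a, known from injured and remodelling vessels among many tissues, had 3080 and 1145 CPM (log2 ratio -1.44), and Mir195a had 1171 and 438 CPM (-1.43). Mir497, beside Mir195a, had 1105 and 998 CPM (-0.16), and Mir214, a mesenchymal gene, 216 and 181 CPM (-0.28). The ratios of Mir497 and Mir214 lay below the median of -0.09 over all 308 genes, but nearer to it than those of Mir21a and Mir195a. Mir145b, a gene elsewhere on chromosome 18 whose name resembles that of Mir145a, had 1 read in replicate 1 and 0 in replicate 2. Mir199a-1 had 0 in both, and Mir199a-2 had 2 and 4. Any read that also matched elsewhere in the genome was not counted. The low counts of Mir199a-1 and Mir199a-2 therefore do not show that their microRNA was absent.

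Some markers of blood and of tissue beside the cortex also differed between the animals. The red cell list summed to 60.2 CPM for replicate 1 and 550 CPM for replicate 2, of which Mir451a, the microRNA that red cells accumulate, made up 16.9 and 491 CPM. Mir144 had 6.47 and 28.6 CPM, Mir486 36.8 and 30.4 CPM, and Mir451b 0 in both. The red cell genes did not share a direction, with log2 ratios of 4.83 for Mir451a, 2.11 for Mir144 and -0.29 for Mir486. The leukocyte, platelet and microglia list summed to 514 and 472 CPM, with Mir223 at 21.1 and 10.9 CPM, Mir142 at 30.7 and 48.2 CPM and Mir142b at 0 in both. Mir150, a lymphocyte gene, led that list with 397 and 326 CPM, and Mir155 had 65.3 and 86.9 CPM. The choroid plexus and epithelial list summed to 6386 CPM for replicate 1 and 2586 CPM for replicate 2, and 7 of 7 genes passed 1.5-fold towards replicate 1, beside 19.5% of all 308 genes. Mir449a, a gene of ciliated cells, had 3168 and 1754 CPM and Mir204, known from choroid plexus, 1288 and 738 CPM. Epithelial genes were further apart, with Mir200b at 711 and 6.88 CPM, Mir200c at 555 and 61.2 CPM and Mir429 at 575 and 22.1 CPM. The neuron list summed to 80888 and 63050 CPM, with Mir139 at 28335 and 18964 CPM and Mir149 at 21926 and 19859 CPM. Mir137 stood at 14397 and 13672 CPM, Mir128-1 at 14073 and 6719 CPM, and Mir138-1, in the other direction, at 2155 and 3832 CPM. The part of blood, choroid plexus or other tissue in the ratios of the vessel genes was not tested.

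**Figure D4:**
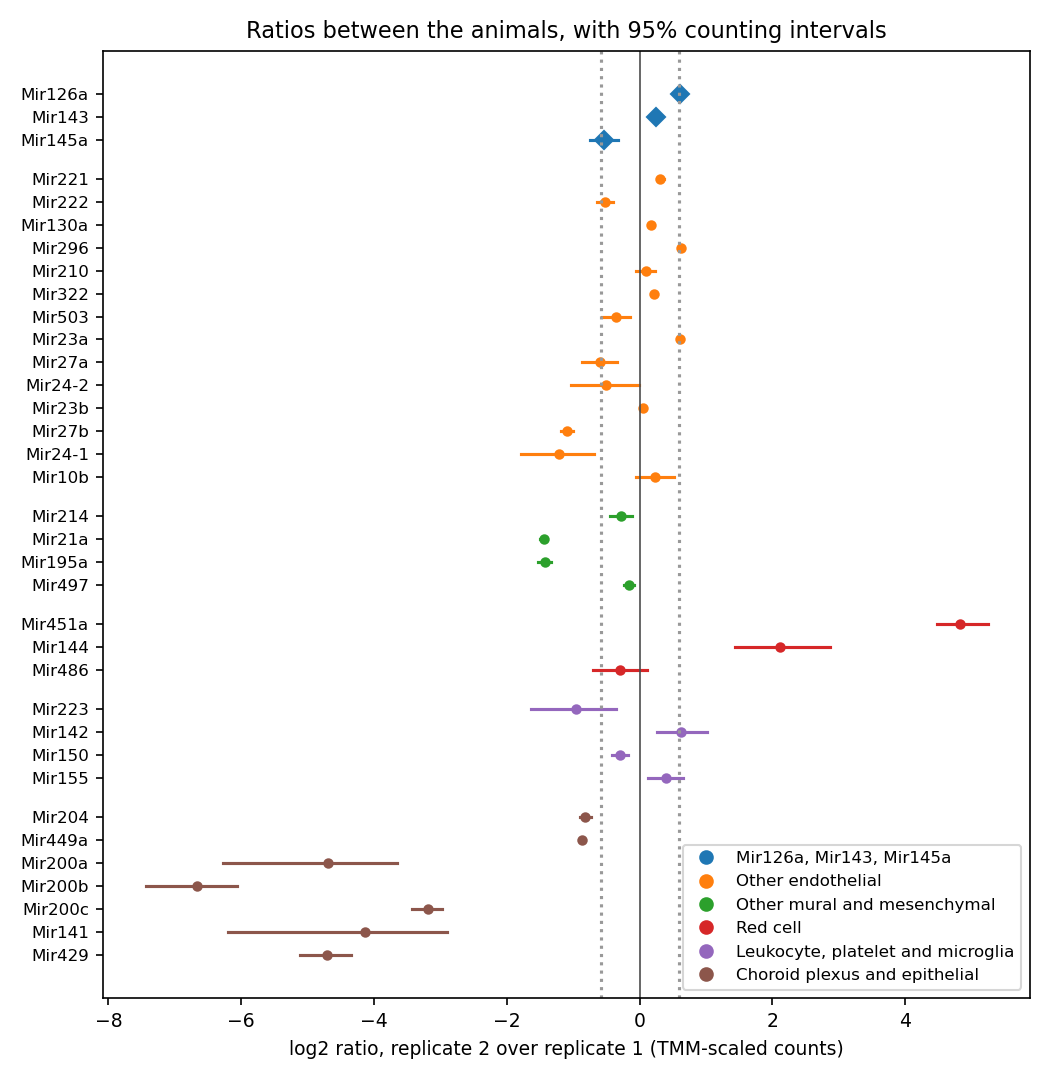
Log2 ratio of replicate 2 over replicate 1 after TMM scaling, with 95% exact intervals for counting error, for Mir126a, Mir143 and Mir145a (diamonds) and for listed genes of other cell types whose counts summed to 100 or more (circles). Dotted lines mark 1.5-fold. Mir126a lies at 0.60 and Mir145a at -0.53, while Mir451a lies at 4.83 and Mir200b at -6.67.

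**Figure D5:**
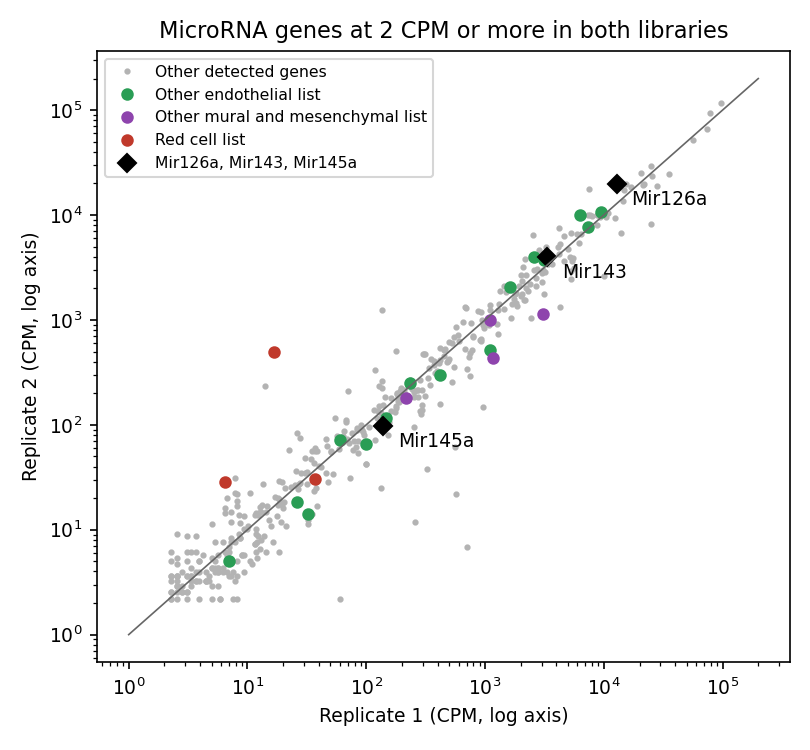
Level in replicate 1 (horizontal) against replicate 2 (vertical), in CPM on log axes, for the 450 detected microRNA genes. Black diamonds are Mir126a, Mir143 and Mir145a, coloured points are listed endothelial, mural with mesenchymal, and red cell genes, and the line marks equal levels. The red cell gene far above the line is Mir451a, at 16.9 and 491 CPM.

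The libraries held 3555469 and 2761003 reads on the annotated strand of microRNA genes, 30.4% and 27.8% of all reads, so that 1 CPM was worth 3.56 reads in replicate 1 and 2.76 in replicate 2.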

How the data were processed

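Small RNAs below 30 bases were sequenced from the cortex of 2 animals, 1 library each. The authors' deposited tables hold raw read counts for each gene, made on mm10 with annotation M21, as their deposited notes state. Aligner, counter and filters are not given in the sources used here. Columns are unnamed in these tables, and they were taken, from layout and values, as counts regardless of strand, counts along the annotated strand (used here) and counts opposite to it. Reads mapped to several places (45.8% and 41.0%), unmapped reads (19.3% and 25.6%) and reads classed as lying in no counted gene (4.50% and 5.63%) were left out. All 2202 gene IDs matched M21.

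CPM used the sum over microRNA genes. Ratios used TMM factors over all genes (edgeR 4.0.16, R 4.3.3) with 0.5 added to each count, with no test. The ratio code was run on simulated counts that varied by counting error only, without variation between animals. Shares have Wilson 95% intervals and ratios exact (Clopper-Pearson) ones. Amplified reads are not independent molecules, so intervals and limits cover counting error only. Detection means 2 CPM or more in both libraries. Folding used ViennaRNA 2.7.2. Genes were named by rule: the 4 vessel genes, the 3 genes nearest in log2(CPM + 1) to each detected one, genes on the opposite strand, and up to 5 detected markers per list by mean CPM. Mir27a, Mir27b, Mir24-1, Mir145b, Mir199a-1, Mir199a-2, Mir451b, Mir142b, Mir3074-1, Mir3107 and the gene pairs were added after their values were seen. The members and lists were chosen with earlier results of these data known. Alternatives covered strand, denominator, hairpin length, scaling, minimum count and leaving out each library.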

Additional observations from a re-analysis of the deposited data

How the results depend on the processing

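Mir126b stayed at 0 throughout, and leaving out 1 of the 2 libraries only returns the value of the other. Of the other 35 recomputed values, 21 stayed within the spread between the replicates, the counting interval or, for gene counts, 1.5 times the main count. None of the 11 recomputed log2 ratios of Mir126a, Mir143 and Mir145a changed sign. Levels moved with the denominator. With all reads as denominator the mean levels were 4693 CPM for Mir126a, 1062 for Mir143 and 34.8 for Mir145a, and without the 10 most abundant genes they were 30561, 6876 and 223 CPM. Per base of hairpin, Mir143 moved to 4745. Counting reads on either strand left Mir126a at 0.598 CPM and its ratio to Mir143 and Mir145a at 0.000162. That column has 213069 and 175822 reads in a row named ambiguous, where the annotated-strand column has 0. With 4 and 0 reads, no ratio between animals was computed from that column for Mir126a, nor from any for Mir126b. With TMM factors from genes with 100 reads or more, the log2 ratio of Mir126a was 0.63, and with RLE factors or library size 0.61 and 0.62. Leaving out 1 library gave 12842 to 19723 CPM for Mir126a, 3337 to 3994 for Mir143 and 97.8 to 140 for Mir145a, 23.9 to 40.8 for Mir143 over Mir145a and 3.69 to 4.82 for Mir126a over both. At 2-fold, 15 genes were higher in replicate 2 and 34 in replicate 1. At a summed count of 20 or more the counts were 68 and 96, from a larger set of genes than the 308. With 2 libraries, the SD rests on 1 difference, and effects of CAST alleles on mapping were not tested.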

Other observations

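Adjacent pairs were counted where both genes were vessel genes or on the endothelial or mural list. In these, the less abundant partner was mostly the one with the lower ratio of replicate 2 over replicate 1, as with Mir145a beside Mir143. This was noticed after the values were seen. Mir222 had a log2 ratio of -0.52 beside 0.31 for Mir221, Mir27a -0.60 beside 0.61 for Mir23a, Mir27b -1.10 beside 0.05 for Mir23b, and Mir503 -0.35 beside 0.22 for Mir322. Of 8 adjacent pairs among the vessel genes and these lists, 7 had the same order of counts in both libraries, and 6 of those 7 showed this. The other pair was Mir195a with Mir497, in which Mir195a had slightly more reads in replicate 1 and fewer in replicate 2, so that the change itself decides which gene is less abundant. By the mean of both libraries the count was 7 of 8, and by replicate 1 it was 6 of 8, alternatives chosen after seeing the data. The exception among the 7 was Mir24-2 at -0.51 beside Mir27a, and Mir24-2 and Mir24-1 share 22 bases with another hairpin. The pairs overlap in genes, such as Mir27a and Mir27b. Pairs with 1 gene off the lists were not counted, and they went both ways. The less abundant Mir296 had 0.63 beside -0.56 for Mir298, whereas the less abundant Mir503 had -0.35 beside 0.08 for Mir351. Over all microRNA genes, 92 of 99 adjacent pairs had 1 order in both libraries, and the less abundant gene had the lower ratio in 49 of them (53.3%), or in 38 of 70 (54.3%) without shared bases. Split at the median level, the 154 more abundant of the 308 genes had a median log2 ratio of -0.03 and the 154 less abundant -0.12. The cause of the order in the counted vessel pairs was not tested.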
